A study of Rattus norvegicus with 93 samples.

Results

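Genes of peptide, receptor, signalling and transport function, 6 of the 38354 rows of the table, were followed across RNA-seq libraries of a brainstem region of outbred rats, the rostromedial tegmental nucleus (RMTg). They are Cck, Nts, Ntsr1, Tacr3, Wnt2 and Slc39a4, taken by symbol, and they were chosen because their levels followed markers of dopamine neurons in these same libraries. All 6 passed the filter on low values (below) in the libraries used. The labels give tissue, poly(A) RNA and outbred laboratory rats for every sample, with no strain name, age, sex, treatment or behaviour, so all samples form 1 group. Of 93 labelled samples, 1 was marked as removed because it was not genotyped, and it is not analysed here. Nothing says how the nucleus was cut out or whether tissue was pooled, and p-values therefore measure only the spread between these samples.

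The RMTg is a small inhibitory nucleus at the tail of the ventral tegmental area. Its GABA neurons project to midbrain dopamine neurons and restrain them, and dopamine cell bodies lie directly in front of it and at its edge. Many midbrain dopamine neurons of rodents also make neuropeptides, cholecystokinin (CCK) and neurotensin among them, which are packed into dense-core vesicles and act on G-protein-coupled receptors. Neurotensin excites dopamine neurons through its receptor NTSR1, and neurokinin B acts on the tachykinin receptor NK3, which Tacr3 encodes. Wnt2 encodes a secreted ligand of the Wnt family, which signals through Frizzled receptors, and Slc39a4 encodes ZIP4, a zinc importer best known from the intestine.

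The 92 libraries were split by their most abundant features, because the rule for the 6 genes uses only some of them. In 32 feature-dominated libraries LOC120093067 and Zfp532 took 19.8% to 56% of the counts, and totals were 2.29 to 13.7 M (M, 1000000 counts). In 11 further libraries Nif3l1 alone took 28.8% to 51.9%, and totals were 1.72 to 8.43 M. In the 49 ordinary libraries the LOC120093067 and Zfp532 pair took 1.41% to 5.5%, so none lay near the limit of 10%, and totals were 9.55 to 50.2 M. Sample identifiers fall into number series (A to F, a gap over 50000 starting a new one) whose meaning is not stated. The ordinary libraries came from series B (7), C (16), D (12), E (7) and F (7), and a library is named here by its series and a running number. Markers of the labelled tissue were present in the ordinary libraries: all 11 genes of an RMTg inhibitory list passed the filter, with a median of 453.2 counts per 1000000 (CPM) for the GABA enzyme gene Gad1 and 43.85 CPM for Sox14. Markers of serotonin neurons, which lie in the neighbouring raphe nuclei, were present as well: all 5 passed the filter, with medians of 183.1 CPM for the enzyme gene Tph2 and 47.71 CPM for the transporter gene Slc6a4. The noradrenaline enzyme gene Dbh was at 0 in 41 of 49 libraries.

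A dopamine score was computed for each library as the mean z-scored level of 11 marker genes of dopamine neurons (Th, Slc6a3, Nr4a2, Pitx3, En1, Foxa1, Lmx1a, Aldh1a1, Drd2, Ret and Chrna6), scaled to an SD of 1. Levels are log2(CPM + 1) throughout, and a slope is the change in that level per SD of the score. Th, the rate-limiting enzyme of dopamine synthesis, had its lowest, median and highest values at 46.5, 196 and 1067 CPM in the ordinary libraries. The score ran from -1.75 in library F01 to 1.6 in E05 and then, with a wide gap, to 3.36 in B34. In whole tissue, fewer dopamine cells and less RNA per cell cannot be told apart.

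Promoter windows were at hand for 4 of the 6 genes in the RefSeq promoter table (build GRCr8), which gives 250 bases before and 50 after each transcript start. Those of Nts and Tacr3 are shown because, of the 4, they alone held a match to any of 6 short motifs searched on both strands. Capitals mark the match. The Nts window lies at chr7:39460839-39461138 on the minus strand and that of Tacr3 at chr2:225940247-225940546 on the plus strand.
Nts promoter: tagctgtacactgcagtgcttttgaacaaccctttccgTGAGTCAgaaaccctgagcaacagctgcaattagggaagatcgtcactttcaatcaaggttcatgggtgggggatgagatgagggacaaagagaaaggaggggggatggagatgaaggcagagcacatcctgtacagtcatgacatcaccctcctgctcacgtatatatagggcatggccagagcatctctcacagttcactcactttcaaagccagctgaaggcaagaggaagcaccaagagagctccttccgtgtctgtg
Tacr3 promoter: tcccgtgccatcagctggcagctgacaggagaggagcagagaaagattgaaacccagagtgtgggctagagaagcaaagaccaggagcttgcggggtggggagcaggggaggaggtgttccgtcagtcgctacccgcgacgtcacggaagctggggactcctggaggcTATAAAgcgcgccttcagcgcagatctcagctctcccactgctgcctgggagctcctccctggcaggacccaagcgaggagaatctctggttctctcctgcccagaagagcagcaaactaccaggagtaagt
The Nts match is to the AP-1 motif TGANTCA, which starts 212 bases before the transcript start. The Tacr3 match is to TATAAA, the letters searched for a TATA box, 82 bases before it. Only exact letters were searched, so a window without a match may still hold a variant form. Whether a match works as a promoter element was not tested. Of all 33469 windows in the table, 7.33% hold the first motif and 14.2% the second. The windows of Ntsr1 (chr3:187983528-187983827, plus strand, 65.7% G or C) and Wnt2 (chr4:47340235-47340534, minus strand, 70% G or C) held none of the 6. The other motifs searched were TGACGTCA, bound by CREB (1.83% of windows), AAAGGTCA, bound by NR4A factors such as the Nr4a2 product (1.43%), GTAAACA, bound by FOXA factors (3.78%), and TAATCC, bound by PITX factors (7.17%). No motif was found in more than 1 of the 4 windows.

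The peptide genes varied most between ordinary libraries, with an SD of the log2 level of 0.958 for Cck and 0.948 for Nts, against 0.591 (Ntsr1) to 0.717 (Slc39a4) for the other 4. Cck, which encodes the precursor of CCK and lies at position 130037702 of chromosome 8 as the table gives it, had a lowest value of 10.9, a median of 42.7 and a highest value of 313 CPM, with a mean of 53.9 ± 46.6 (SD, n = 49). Library B34 stood 2.75 times above the second highest, C22 at 114 CPM, and the widest gap in the sorted log2 levels, 1.45, lay just below it. Nts, the neurotensin precursor gene (chromosome 7, position 39460888), had 1.09, 5.76 and 55.2 CPM as its lowest, median and highest values, with a mean of 7.64 ± 8.63. B34 was again highest, 1.94 times above C21 at 28.5 CPM. CPM carries the length of the transcript, so levels of one gene are not set against those of another.

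The receptor genes varied less. Ntsr1, the high-affinity neurotensin receptor gene (chromosome 3, position 187983778), had a lowest value of 1.75, a median of 5.11 and a highest value of 19.1 CPM (mean 5.47 ± 3). B34 lay 1.57 times above F06, at 12.2 CPM. Tacr3 (chromosome 2, position 225940497) had 2.89, 7.81 and 28.8 CPM (mean 8.99 ± 4.67), with F06 second at 18.1 CPM. Wnt2 (chromosome 4, position 47340284) had 1.12, 6.15 and 34.8 CPM (mean 7.25 ± 5.02), with F06 second at 17.1 CPM. Slc39a4 (chromosome 7, position 110218202) had 1.06, 6.39 and 24.2 CPM (mean 6.76 ± 4.13), with E07 second at 15.5 CPM. B34 thus held the highest value of all 6 genes and of Th. It had a total of 14.3 M counts and a pair share within the range of the other ordinary libraries. The smallest count of any of the 6 genes in an ordinary library was 11, and counting error, taken as Poisson, made up 0.373% (Cck) to 4.86% (Ntsr1) of the variance of the log2 levels.

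The values that chose the genes are their relations to the dopamine score in the ordinary libraries, given here without a test. Pearson's r with the score was 0.92 for Cck, 0.90 for Wnt2, 0.88 for Ntsr1, 0.88 for Slc39a4, 0.81 for Tacr3 and 0.57 for Nts. Among 18738 tested genes outside the marker list these ranked 1, 2, 5, 4, 13 and 111. The slope was 0.88 ± 0.05 (SE) for Cck, 0.63 ± 0.05 for Slc39a4, 0.58 ± 0.04 for Wnt2, 0.54 ± 0.11 for Nts, 0.52 ± 0.04 for Ntsr1 and 0.49 ± 0.05 for Tacr3. Without B34 and F01, the 2 libraries farthest from the median score, r was 0.90, 0.85, 0.85, 0.85, 0.76 and 0.45 for Cck, Wnt2, Ntsr1, Slc39a4, Tacr3 and Nts in that order. Of the 18738 genes, 3.50% passed the test in the rising direction and 4.89% in the falling one (limma, adjusted p under 0.05), and the median slope of all was -0.003.

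**Figure D1:**
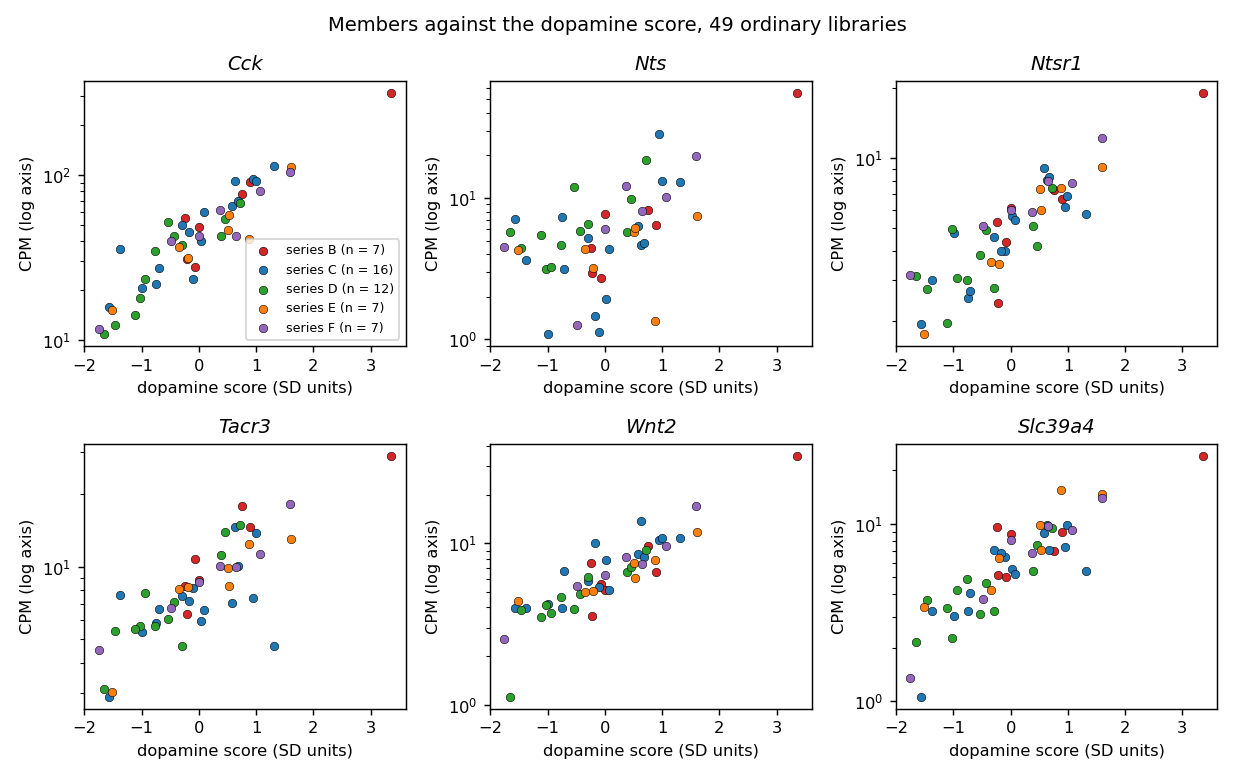
CPM of each gene (log axis) against the dopamine score in SD units, 1 point per ordinary library, coloured by identifier series. Points climb together for 5 genes, Nts scatters more widely, and B34 (series B, score 3.36) stands alone at the upper right of each panel.

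Within each single series r stayed above 0.50 for 5 of the genes, and for Nts it did so in 3 of 5. The values of series B lean on B34 for every gene, since its score was 3.36 and the next of the 7 libraries had 0.90. For series B without B34, r was not computed. For Cck r lay between 0.90 and 0.95 in the 5 series, for Wnt2 between 0.85 and 0.97, for Slc39a4 between 0.82 and 0.97 and for Ntsr1 between 0.69 and 0.98. Tacr3 had 0.51 in series C and 0.88 to 0.97 in the others. Nts had 0.95 in series B, which holds B34, 0.72 in F, 0.67 in D, 0.49 in C and 0.14 in E. The score accounted for 32.8% of the variance of Nts and for 66.2% (Tacr3) to 85.3% (Cck) of that of the other genes. Of the 11 marker genes, each of the 6 genes except Nts had its lowest r with En1, a homeobox gene also used by neighbouring hindbrain cells. Nts had its lowest with Pitx3 (0.33) and its highest with Nr4a2 (0.76).

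The feature-dominated libraries, which the rule did not use, allowed a test of the same slope. There the totals left out the dominant features and ribosomal RNA. The first principal component of all other genes was in the fit. It was included because, in earlier results not shown here, the scores of all marker lists rose together in these libraries. That component held 33.3% of the variance and had an r of 0.41 with the dopamine score. Nts had a lowest value of 0, a median of 0.991 and a highest value of 25.9 CPM in these 32 libraries, with 17 of them under 3 counts. Slc39a4 had 0, 1.68 and 11.4 CPM, with 14 libraries under 3 counts. Cck had 1.06, 12.1 and 123 CPM, Ntsr1 0.825, 4.51 and 28.7, Tacr3 0.532, 4.44 and 21.6, and Wnt2 0.628, 6.67 and 23 CPM. Library A03, which also had the highest Th and the highest score (2.69, against 2.29 in the next), was highest for every one of the 6 genes except Cck, for which C01 was. Cck was also high in B09 and B01, and the scores of C01, B09 and B01 were only 0.12, 0.00 and -0.15. These libraries had the highest values of the component (1.68, 2.42 and 2.36) and large totals (12.7, 13.7 and 10.6 M). The part of depth in their Cck level was not tested.

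All 6 genes rose with the dopamine score in the feature-dominated libraries (limma, Benjamini-Hochberg over 20445 genes). The slope was 0.97 ± 0.12 for Nts (adjusted p = 1.6e-06), 0.89 ± 0.12 for Wnt2 (6.1e-06), 0.83 ± 0.10 for Tacr3 (2.2e-07), 0.82 ± 0.17 for Cck (0.00095), 0.78 ± 0.09 for Ntsr1 (1.9e-07) and 0.67 ± 0.13 for Slc39a4 (0.00064). In that fit 21.7% of all genes rose (4445 rising and 300 falling). With median-of-ratios scaling 1.94% did (353 rising and 370 falling), and the 6 genes still passed. By the moderated statistic Ntsr1, Tacr3, Nts and Wnt2 ranked 8, 9, 11 and 13 of 20445, whereas Slc39a4 ranked 177 and Cck 300. In these libraries the score itself went with depth (r = 0.39 with the log10 total) and with the share of the dominant pair (r = -0.48), whose part in the result was not tested. Within series B (18 libraries) r with the score was 0.64 to 0.93 for the 6 genes, and within series C (8 libraries) 0.65 to 0.85. Without A03 every one of the 6 still passed, with adjusted p from 1.0e-06 (Tacr3) to 0.0036 (Cck).

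**Figure D2:**
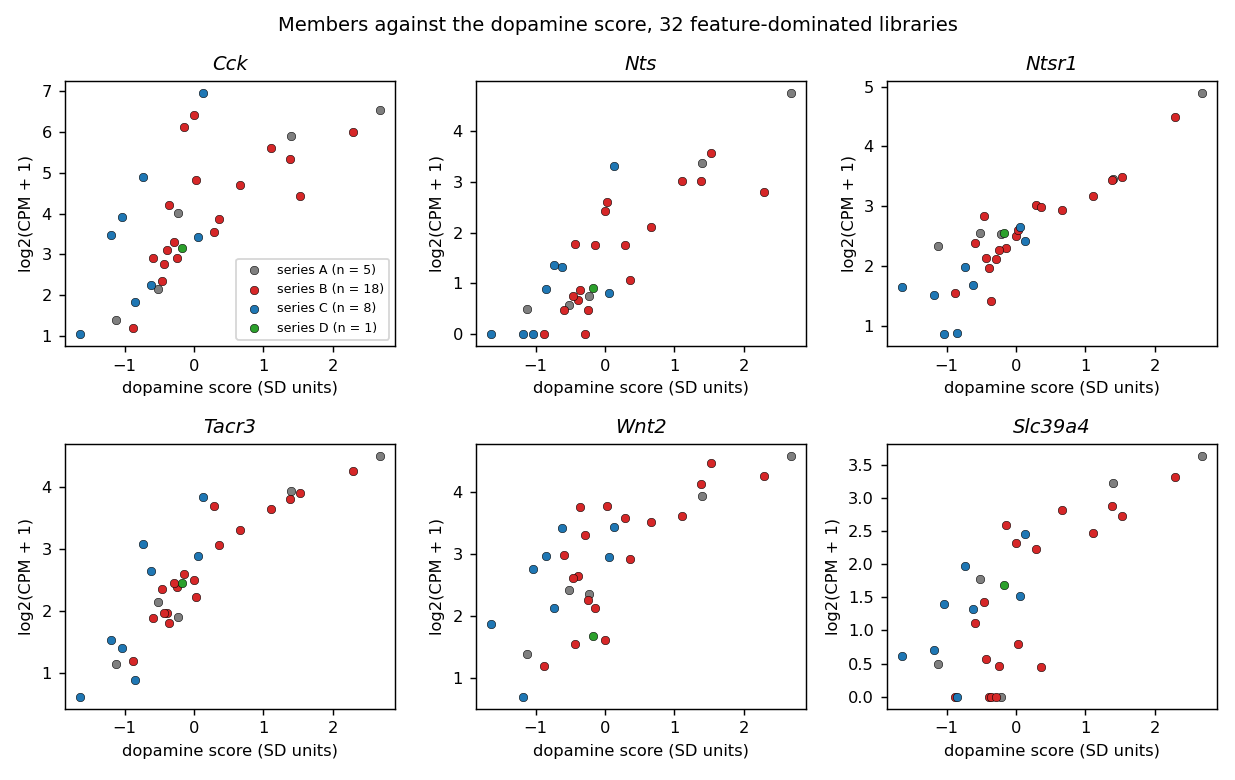
log2(CPM + 1) of each gene, with dominant features left out of the totals, against the dopamine score in SD units in the 32 feature-dominated libraries, coloured by identifier series. Levels climb with the score in every panel, for Cck with some of the highest values at middling scores. The floor of Nts and Slc39a4 is formed by libraries at or near 0 counts.

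**Figure D3:**
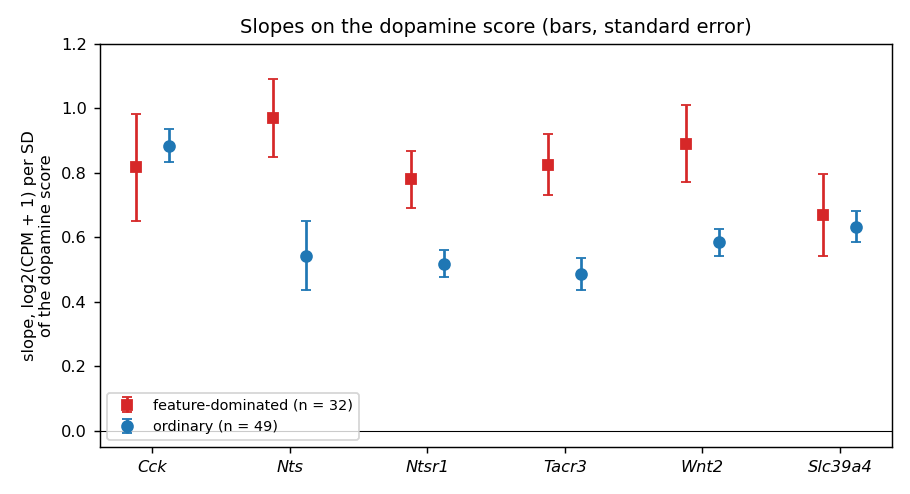
Slope of each gene on the dopamine score (log2(CPM + 1) per SD) with its standard error, feature-dominated libraries as squares and ordinary libraries as circles. All 12 slopes lie above 0. The ordinary slopes chose the genes and carry no test, and the difference between the kinds of library was not tested.

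The level of the 6 genes differed unequally between the kinds of library. With the same totals, medians in the feature-dominated and the ordinary libraries were 12.1 and 44 CPM for Cck, 0.991 and 5.92 for Nts, and 1.68 and 6.62 for Slc39a4. They were 4.44 and 8.14 CPM for Tacr3, 4.51 and 5.26 for Ntsr1, and 6.67 and 6.3 for Wnt2. The mean log2 difference was -1.61 for Cck, -1.35 for Slc39a4 and -1.30 for Nts, -0.68 for Tacr3, -0.12 for Ntsr1 and -0.08 for Wnt2, beside a median of -0.28 over all tested genes (-0.85 with totals over every feature) and -1.68 for Th. With either total Ntsr1 and Wnt2 lay above that median and the other 4 below it. The kinds were defined from the counts, so these values are a description, with no test. In the 11 libraries dominated by Nif3l1, Nts and Slc39a4 had 0 counts in all 11, and the other 4 genes had 0 in 8 to 10 of 11 and at most 5 counts in any.

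Pairwise, the genes moved together mostly as far as they shared the score. In the ordinary libraries r between pairs ran from 0.38 (Nts and Slc39a4) to 0.88 (Cck and Wnt2). Ligand and receptor were not an unusually close pair: Nts and Ntsr1 had an r of 0.47, lower than that of Ntsr1 with each of the other 4 genes. After the score was removed from each gene, the 15 pairs ran from -0.32 to 0.42. The highest was Tacr3 with Slc39a4 (0.42), followed by Cck with Wnt2 (0.29) and Ntsr1 with Tacr3 (0.25), and the lowest was Nts with Slc39a4 (-0.32). These correlations over 49 libraries are given as a description, and the 2 genes of a pair are measured in the same libraries and scaled by the same totals.

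**Figure D4:**
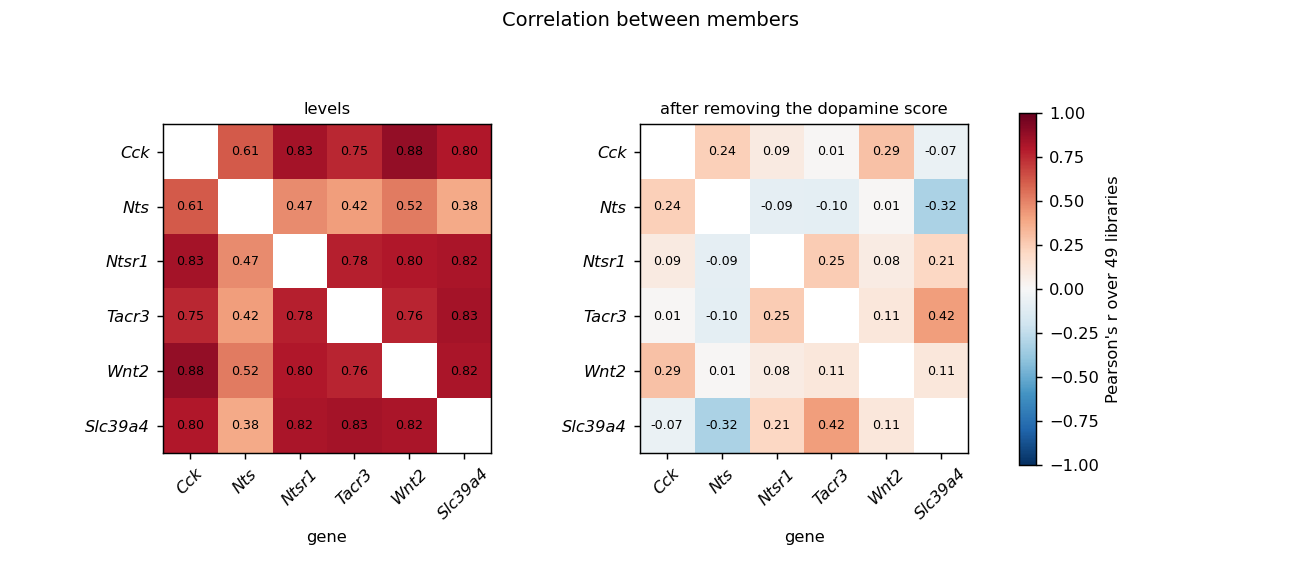
Pearson's r between the 6 genes over the 49 ordinary libraries, on the levels (left) and after the dopamine score was removed from each gene (right), on a colour scale from -1 to 1. The left panel is high throughout except in the Nts row, and the right panel holds values near 0 apart from a few pairs.

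The genes most like each member, by r over the 49 libraries, were mainly dopamine markers and one another. Th was nearest to Cck (0.92), Wnt2 (0.88), Slc39a4 (0.88) and Ntsr1 (0.87). Cck was followed by Wnt2 (0.88), the pioneer factor gene Foxa1 (0.87), the nuclear receptor gene Nr4a2 (0.86), the neurotrophic-factor receptor gene Ret (0.84) and Slc18a2 (0.83), the vesicular monoamine transporter gene. Ntsr1 was followed by Cck, Slc39a4, Chrna6, the phosphodiesterase gene Pde2a and Wnt2 (0.83 to 0.80). Wnt2 was followed by Cck, Slc18a2, Slc39a4, Nr4a2 and the vesicular transporter gene Slc10a4 (0.88 to 0.81). Tacr3 was nearest to Slc39a4 (0.83), then to the dopamine receptor gene Drd2 (0.82), Th (0.81), Ntsr1 (0.78), Wnt2 and Slc6a3 (0.76 each). Slc39a4 came next to Th with the dopamine transporter gene Slc6a3 (0.84), Tacr3 (0.83), Ntsr1, Wnt2 and Chrna6 (0.82, 0.82 and 0.81).

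The like genes of Nts overlapped in part with those of the others, since Nr4a2 and Foxa1 are also among the 6 of Cck and Nr4a2 among those of Wnt2. Nts was nearest to Nr4a2 (0.76), then to Serpinb1b (0.68), the bone morphogenetic protein gene Bmp5 (0.66), the adhesion gene Cntnap4 (0.66), Adcyap1 (0.65), which encodes the peptide PACAP, and Foxa1 (0.65). Without B34 these 6 values were 0.68, 0.59, 0.54, 0.57, 0.52 and 0.56. Th, nearest to 4 of the other genes, had an r of 0.49 with Nts.

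Neighbours on the chromosome did not in general share the pattern. Of the nearest named neighbour on each side of the 6 genes, 10 of 12 were tested. Slco4a1, an organic anion transporter gene whose position lies 47 kb from that of Ntsr1, had an r of 0.53 with it and ranked 114 among its like genes. Vps28, an endosomal sorting gene 8.28 kb from Slc39a4, had 0.41. The other 8 (Trak1, Mgat4c, Rassf9, Mrgbp, Cxxc4, Cenpe, ST7 and Cpsf1) had -0.08 to 0.21, and Lyzl4 and Asz1 did not pass the filter.

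Partners in the same pathways were read against the share of all genes that passed in the same fit, 3.50% rising and 4.89% falling. At an unadjusted p under 0.05 that fit held 5003 of 18738 genes (limma). The fit had no covariate, and the score had an r of 0.49 with the first principal component in the ordinary libraries. Of all genes 1573 passed, against 133 with that component and 249 with Xist and Ddx3y as covariates. The list genes were rechecked under other scalings only, so whether their calls hold with these covariates was not tested. Among genes of peptide processing and CCK receptors 3 of 8 tested rose (6 at an unadjusted p under 0.05), a larger share than that of all genes: Pcsk2, a prohormone convertase gene (slope 0.14 ± 0.03, adjusted p = 0.0088), Pam, which amidates peptides (0.12 ± 0.03, 0.0043), and Cpe, carboxypeptidase E (0.09 ± 0.03, 0.033), all by limma over 18749 genes. The median slope of the 8 was 0.104, and with median-of-ratios scaling the convertase gene Pcsk1 passed too (0.14). The CCK receptor genes Cckar and Cckbr were below the filter, with medians of 0.472 and 0.625 CPM. Of 6 neurotensin receptor and peptidase genes, Ntsr2, Sort1, Sorl1, Thop1, Nln and Mme, 0 passed by limma (2 at an unadjusted p under 0.05), with a median slope of 0.051, and with median-of-ratios scaling the peptidase gene Nln passed (0.08). Of the tachykinin genes, Tac1 and Tacr1 were tested and 0 passed (0 at an unadjusted p under 0.05), with slopes of -0.01 and 0.04. Tac3, which encodes neurokinin B, the preferred ligand of the Tacr3 product, was below the filter at a median of 0.682 CPM.

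In the Wnt and zinc lists few genes passed, which is near the share of all genes (3.50% rising and 4.89% falling) and says nothing particular of these families. Unadjusted counts below stand beside 5003 of 18738 genes at an unadjusted p under 0.05 in the same limma fit. Of 9 other Wnt ligand genes tested 0 passed by limma (1 at an unadjusted p under 0.05), although Wnt5a did with median-of-ratios scaling (0.15). Of 11 receptor genes Fzd6 rose (0.14 ± 0.04, adjusted p = 0.030), and of 11 inhibitor and target genes Axin2 (-0.16 ± 0.05, 0.049) and Lef1 (-0.20 ± 0.06, 0.022), which are both targets of canonical Wnt signalling, fell. The call of Axin2 was lost with median-of-ratios scaling (adjusted p = 0.056) and with totals without the dominant features (0.053). Median slopes of the ligands, receptors, and inhibitors and targets were 0.057, -0.02 and 0.013. Of 12 other zinc importer genes of the Slc39 family, 8 exporter genes of the Slc30 family and 4 zinc-response genes, 0 passed by limma (1, 2 and 0 at an unadjusted p under 0.05), and with median-of-ratios scaling the exporter gene Slc30a5 did (0.12). Median slopes were 0.017, 0.061 and 0.039. The largest slopes among the other tested Wnt ligand and Slc39 genes were 0.14 (Wnt5a) and 0.10 (Slc39a12). Wnt2 and Slc39a4 were chosen by this slope, so their own values are not set against these.

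Marker lists of dopamine subtypes and of other cells were read from the same fit, beside the same shares of all genes (3.50% rising and 4.89% falling). Whether their calls hold with the first principal component, or with Xist and Ddx3y, as covariates was not tested either. Of 7 genes that mark dopamine neurons of the ventral tegmental area 6 rose, among them the transcription factor genes Otx2 (0.45 ± 0.06) and Neurod6 (0.35 ± 0.06), the calcium-binding protein gene Calb1 (0.37 ± 0.04), Grp, Lpl and Adcyap1 (0.21 to 0.26), and Vip did not pass (0.14). Of 6 genes that mark those of the substantia nigra 3 rose, Ndnf (0.37 ± 0.05), Aldh1a1 (0.29 ± 0.03) and Anxa1 (0.24 ± 0.07). The others, Satb1 (0.05), Sox6 (-0.03) and Igf1 (-0.16, unadjusted p = 0.017 by limma), did not pass. Aldh1a1 is also in the score, so its rise was in part built in. Median slopes of the lists were 0.259 and 0.146, the second with Aldh1a1 counted. From the interpeduncular list, the nicotinic receptor subunit genes Chrna5 (0.60 ± 0.08) and Chrna3 (0.44 ± 0.05) rose, as did Pmch (0.19) of the hypothalamic list, Gfap (0.29) of the astrocyte list and Tmem119 (0.14, adjusted p = 0.052 with totals without the dominant features) of the microglia list, and Glra1 (-0.17) of the glycinergic list fell. In the order named, these lists held 5, 3, 6, 8 and 3 tested genes, and their other genes did not pass. Of the 11 RMTg inhibitory genes 0 passed by limma (2 at an unadjusted p under 0.05), with a median slope of -0.011, a count near the share of all genes.

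Beyond the dopamine score the 6 genes followed none of 8 other cell type scores past the threshold. With both scores in the fit, 0 of 48 pairs of a gene and a score passed by limma (6 at an unadjusted p under 0.05). The smallest adjusted p was 0.089, for Cck and the endothelial score (slope -0.12 ± 0.05). Next came Nts with the glycinergic score (0.25 ± 0.10, adjusted p = 0.11), and Nts with the RMTg inhibitory score had a slope of -0.30 ± 0.10 (adjusted p = 0.28). Of all genes, 0.0640% passed on the RMTg inhibitory score, 0.0213% on the serotonergic, 0.00533% on the glutamatergic, 9.68% on the glycinergic, 14.3% on the oligodendrocyte, 25.2% on the astrocyte, 2.05% on the microglia and 15.6% on the endothelial score.

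The identifier series and the depth were checked as possible batches. Of the 6 genes 0 differed between the 5 series by limma's F test (2 at an unadjusted p under 0.05, Tacr3 and Slc39a4), with adjusted p from 0.25 (Slc39a4) to 0.79 (Nts), while 1.71% of all genes did. Series B had the highest and series D the lowest mean log2 level of Cck (6.05 and 4.92), Tacr3 (3.72 and 2.99), Wnt2 (3.16 and 2.47) and Slc39a4 (3.27 and 2.37). The means of series B include B34, the highest library for all 6 genes. By median CPM series B stayed highest for Cck, Tacr3 and Slc39a4, but Wnt2 was higher in C (7.29) and F (7.41) than in B (6.61). Without B34 adjusted p of the F test ran from 0.37 (Slc39a4) to 0.81 (Nts). On the log10 library total 0 of the 6 had a slope that passed (0 at an unadjusted p under 0.05), with adjusted p from 0.62 to 0.93, and 0.0107% of all genes passed. The dopamine score had an r of 0.20 with the log10 total and of -0.07 with the share of the dominant pair in the ordinary libraries.

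To see what each gene followed beyond the markers, every other gene was tested for a slope on its level with the dopamine score in the fit, a test added after the data had been seen. For Nts, 1 of 18748 genes passed (0.00533%), and it was Nr4a2. Nr4a2, or Nurr1, is a transcription factor that dopamine neurons need to form and to keep their identity, and it is also 1 of the 11 genes of the score. Its lowest, median and highest values were 4.58, 8.94 and 41.9 CPM, and it changed by 0.24 ± 0.04 log2 units per SD of Nts (limma, adjusted p = 0.020). With Nr4a2 taken out of the score the slope was 0.26 ± 0.05 (adjusted p = 0.0042), and without B34 it was 0.21 ± 0.04 (0.049). After removal of the score, r of Nts with Nr4a2 was 0.63 over the 49 libraries and 0.56 to 0.74 within the 5 series. The call was lost with the identifier series in the fit (0.23 ± 0.05, adjusted p = 0.15) and without E07 (0.12) or D02 (0.083), and held in the other 47 fits that left out 1 library. In the feature-dominated libraries the slope did not pass (0.37 ± 0.15, adjusted p = 0.53), and with no principal component in the fit it was 0.05 ± 0.19 (0.90). With the component in the fit 0.00% of 20455 genes passed on Nts by limma (1768 at an unadjusted p under 0.05).

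**Figure D5:**
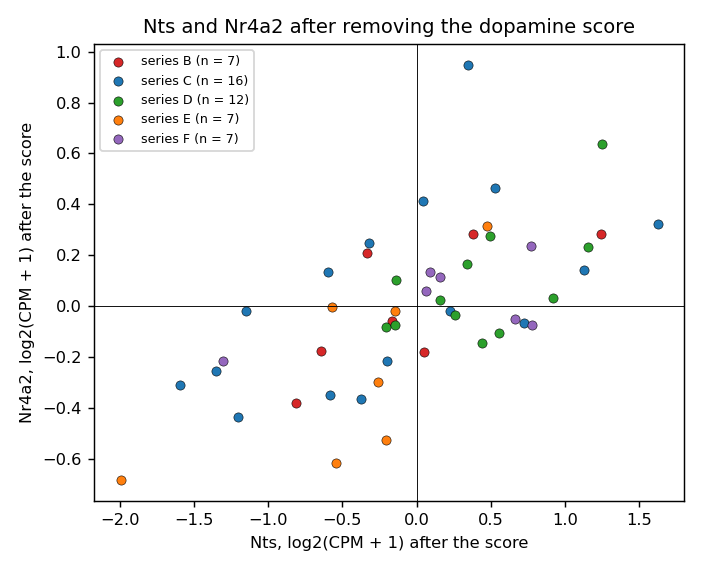
log2(CPM + 1) of Nr4a2 against that of Nts in the 49 ordinary libraries after the dopamine score was removed from both, coloured by identifier series. Points run from lower left to upper right in every series (r = 0.63 in all), and the highest Nr4a2 value lies in series C.

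The other genes differed in the same test. For Tacr3, 1209 of 18748 genes passed (6.45%), 1004 rising and 205 falling (578 and 459 with median-of-ratios scaling), led by the ubiquitin ligase gene Trim25 (0.54 ± 0.08), the coactivator gene Ppargc1b (0.65 ± 0.10) and Otud7a (0.34 ± 0.05), named after their values were seen. That count was 418 without C22, in which Tacr3 stood at 4.67 CPM beside a score of 1.31, and 2097 with the identifier series in the fit. For Cck, Ntsr1, Wnt2 and Slc39a4, 0 genes passed by limma (0.00% each), with 3169, 2326, 389 and 1093 at an unadjusted p under 0.05. These 4 counts were not all stable: Cck reached 187 with Nr4a2 taken out of the score, and Ntsr1 reached 105 without B33.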

How the data were processed

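Poly(A) RNA of the RMTg was sequenced, and the submitters' processing notes name kallisto 0.48. The genome build is not given in the sources used here. Gene positions come from the table itself. For Nts, Ntsr1, Tacr3 and Wnt2 they equal the transcript starts of the GRCr8 promoter windows. The deposited table holds log2 values, which the authors made from estimated counts plus 1, as the values show: after back-transformation, 49.94% of the entries between 0 and 20 were whole within 0.01, and totals differed between libraries. It holds 38354 genes and 92 libraries, of which 2 carry an identifier corrected after a genotype mismatch.

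Here values were back-transformed, scaled to CPM by the column total and put on the scale log2(CPM + 1). Genes at 1 or more on that scale in at least 20% of the libraries of a fit were tested, 18749 in the ordinary libraries. Slopes and F tests were fitted with limma 3.58.1 in R 4.3.3 (mean trend, moderated statistics), with Benjamini-Hochberg adjustment over all genes and a threshold of 0.05. The slope and series fits were tested on simulated data with independent noise for each gene. That noise held no component shared between genes, so it does not check the fit in the feature-dominated libraries in that respect. A score is the mean z of a list's tested genes, scaled to an SD of 1, and a score's own genes are left out of counts. In the feature-dominated libraries totals left out Nif3l1, LOC120093067, Zfp532 and 159 ribosomal RNA features.

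The 6 genes, the gene lists and the library kinds were chosen with earlier results of these data known. Genes named are the 6, list genes that passed, for each of the 6 the 6 genes of highest r and the nearest neighbour on each side (passing over provisional symbols: those with the prefix LOC, RGD, AABR or ENSRNOG, and those that end in Rik), and others where stated. No 2 ordinary libraries held identical values. Alternatives changed the pseudocount, filter, scaling, covariates, score and libraries.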

Additional observations from a re-analysis of the deposited data

Results flagged for a closer look

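Library B34 stood apart from the other 6 ordinary libraries of series B for 5 of the 6 genes, by Dixon's criterion on the gap to the nearest library. It had 313 CPM of Cck, against 91.3 in the next library of that series. Nts was at 55.2 CPM, against 8.24. Ntsr1 was at 19.1 CPM, against 7.3. Wnt2 was at 34.8 CPM, against 9.56. Slc39a4 was at 24.2 CPM, against 9.55. These were 5 of the 18 groups checked (6 genes in the 3 series of 7 libraries). All 5 are 1 library, which also had the highest Th (1067 CPM) and the highest dopamine score (3.36). The genes were chosen because they followed that score in these libraries, so the flags are a description and are not set against a chance rate. Without B34 the slopes on the dopamine score were 0.79 for Cck, 0.38 for Nts, 0.45 for Ntsr1, 0.49 for Wnt2 and 0.58 for Slc39a4.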

How the results depend on the processing

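Within the 49 ordinary libraries the slopes of the 6 genes kept their sign under 18 alternatives each, with ranges of 0.76 to 0.96 for Cck, 0.38 to 0.64 for Nts, 0.45 to 0.61 for Ntsr1, 0.42 to 0.58 for Tacr3, 0.47 to 0.67 for Wnt2 and 0.54 to 0.76 for Slc39a4. In the feature-dominated libraries all 6 passed under 9 alternatives each, with the largest adjusted p at 0.033 (Slc39a4), and the slope of Nts was 1.57 with a pseudocount of 0.1. These slopes in the ordinary libraries chose the genes, so their ranges are a description. The call of Nr4a2 on Nts was lost with the identifier series in the fit (0.23), without E07 (0.22) and without D02 (0.22).

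Counts over all genes moved more, and the cause was not tested. The count on the dopamine score was 1573, and it was 1030 with series, 862 with library total, 249 with Xist and Ddx3y and 133 with the first principal component as covariates, 3982 with a score of Th and Slc6a3, 610, 218, 710 and 770 without series C, D, E and F, and 18167 over all 92 libraries. In the feature-dominated libraries it was 4745, and 1752 with series, 723 with median-of-ratios scaling, 1040 without the 2 farthest libraries and 2011 with a score of Th and Slc6a3. The series count of 320 was 105 with Xist and Ddx3y. The library-total count of 2 was 0 with series and 0 with median-of-ratios scaling. Of the counts on a gene beyond the score, Cck (0) was 1 with median-of-ratios scaling and 187 without Nr4a2 in the score, Nts (1) was 2 with that scaling, 2 with the principal component and 0 with series, Ntsr1 (0) was 1 and Tacr3 (1209) was 2097 with series, and Nts in the feature-dominated libraries (0) was 3 with no principal component. With 1 library left out the counts ran from 0 to 28 for Cck, 0 to 5 for Nts, 0 to 105 for Ntsr1, 418 to 1712 for Tacr3, 0 to 1 for Slc39a4 and stayed at 0 for Wnt2. The dopaminergic list of an earlier analysis was not run. No paired analysis was possible because there is 1 group and the labels carry no replicate numbers. Depth limits Nts and Slc39a4 in the feature-dominated libraries, where 17 and 14 of 32 libraries held under 3 counts.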
